A study of Mus musculus with 2 samples.

Results

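The 37 genes described here encode enzymes and membrane proteins of the lysosome, and they were taken from the 31053 genes of each count table as the rows whose symbol was on a fixed list. All 37 were found in both tables and each had at least 1 count in each library. By role they comprised 10 genes for cathepsins and legumain, 8 for other peptidases and glycosidases, 7 for lipid enzymes, their activators and cholesterol export, 8 for membrane proteins and 4 for the proton pump. The study compared immune cells of mouse lung after inhalation of diesel exhaust particles (DEP) with cells of unexposed mice, in 1 single-cell RNA library per group. Lungs were perfused and digested, and leukocytes were sorted by CD45, a membrane phosphatase that marks them. The control library was labelled Ccr2-/- (KO), CD45.1+, without treatment. The exposed library was labelled Ccr2-/- (KO), CD45.3+, with DEP at 500 µg/m³, which the labels' protocol gives as 1 hour per day on 5 days per week over 2 weeks in a whole-body chamber. Both libraries thus carried the same knockout label, although the series' design text names wild-type and knockout mice, and neither the age of the animals nor pooling of animals is stated. Ccr2, the chemokine receptor of the knockout label, was detected in classical monocytes at 575 UMIs per 1000000 UMIs (CPM) [549 to 601] in the library labelled control and 774 CPM [754 to 795] in the library labelled exposed. Where the deletion lies relative to the counted 3′ end is not given.

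Lysosomes are acidic compartments in which proteins, glycans and lipids brought in by phagocytosis, endocytosis or autophagy are broken down. A proton pump (the V-ATPase) acidifies them, soluble hydrolases such as cathepsins digest their content, and heavily glycosylated membrane proteins such as LAMP1 line them. In the lung, alveolar macrophages take up inhaled particles and spent surfactant into these compartments. Many lysosomal genes can be activated by the MiT/TFE transcription factors (TFEB, TFE3, MITF, TFEC), which bind short promoter elements built around the letters CACGTG.

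That element is shown for members on which the results turn: Ctsd and Ctsl, the cathepsin genes with the largest differences in classical monocytes, Lgmn, a gene of interstitial macrophages, Gla, which differed between libraries in several cell types, and Lamp1, which held more copies than any other member. Promoters came from RefSeq (build GRCm38.p6, 250 bases before to 50 bases after the start site), and 32 of the 37 members had an entry. CACGTG, which reads the same on both strands, occurred in 10 of those 32 (31.2%) and in 2187 of 27025 genes with an entry (8.09%). The longer TCACGTGA, which contains it, occurred in 5 of 32 (15.6%) and in 1.12% of all genes, and the same letters with a further G before and C after in 0 of 32 and in 0.370% of all genes. The 10 were Ctsa, Ctsd, Ctsl, Lgmn, Gaa, Gla, Glb1, Lamp1, Mcoln1 and Atp6v1a. Each stretch below is written 5′ to 3′ on the strand of its gene and ends before the RefSeq start site, with CACGTG in capitals. In the GENCODE annotation, the Lgmn and Ctsl stretches and the Ctsd stretch nearer the start site lie inside the gene, past its annotated 5′ end. A match describes these letters only.
Ctsd, chr7:142387908-142387937, minus strand, with the element 98 bases before the start site: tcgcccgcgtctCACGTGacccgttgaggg
Ctsd, chr7:142388040-142388077, minus strand, 245 bases before: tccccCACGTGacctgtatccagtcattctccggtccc
Ctsl, chr13:64370739-64370768, minus strand, 236 bases before: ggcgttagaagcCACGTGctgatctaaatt
Lgmn, chr12:102439109-102439168, minus strand, 49 bases before: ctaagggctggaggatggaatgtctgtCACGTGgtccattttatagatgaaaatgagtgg
Gla, chrX:134601182-134601211, minus strand, 194 bases before: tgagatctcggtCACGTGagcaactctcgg
Gla, chrX:134601215-134601244, minus strand, 227 bases before: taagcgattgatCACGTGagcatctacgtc
Lamp1, chr8:13159073-13159160, plus strand, 4 copies from 61 to 15 bases before: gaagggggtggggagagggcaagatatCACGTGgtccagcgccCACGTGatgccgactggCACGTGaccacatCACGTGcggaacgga
The Ctsd stretch nearer the start site and both Gla stretches held the longer TCACGTGA, whereas the 4 copies in Lamp1 did not.

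UMIs, the tags by which single transcripts are counted, totalled 62047730 over 10312 barcodes in the control and 67030914 over 10000 barcodes in the exposed library. After filters and doublet removal, 8940 and 8690 cells remained, of which 95.6% and 95.8% had a UMI of Ptprc, the CD45 gene. Only 23 barcodes occurred in both libraries. Of 30 clusters, 26 were named from marker genes, so every cell type below means cells like that type, and 12 types with at least 50 cells in each library were compared. Proliferating cells (68 control and 57 exposed cells in 2 clusters) were also numerous enough but were left out, since the name describes a state that cells of several types can share. Levels are CPM of the UMIs summed over a type, with 95% intervals in square brackets that reflect counting error and nothing else. Each group had 1 library, so variation among animals was not measured and no test was possible, and exposure cannot be told apart from any other difference between the 2 libraries, animals or sorts. A gene counted as called in a cell type where its CPM differed by at least 1.5-fold, its interval excluded equality and its summed count was at least 50. The kit counts transcripts at their 3′ end, so levels of different genes are compared as transcripts without a correction for length.

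Across cell types, the 37 genes made up the largest share of UMIs in alveolar macrophages and the smallest in T cells. The 12 types had the same order in both libraries, and the intervals of neighbours in that order did not overlap. For alveolar macrophages the control share was 2.23% [2.22 to 2.24] and the exposed share 2.24% [2.23 to 2.25]. Interstitial macrophages had 1.89% and 1.85%, classical monocytes 1.66% and 1.66%, and nonclassical monocytes 1.41% and 1.29%. Among the 12 types compared, these 4 phagocyte types stood apart from the rest. Type 2 dendritic cells followed with 1.00% and 0.981% and type 1 dendritic cells with 0.933% and 0.925%. Plasmacytoid dendritic cells, too few to be compared (23 control and 25 exposed cells), had 1.65% and 1.61%, close to classical monocytes. Neutrophils, although phagocytic, reached only 0.562% and 0.489%. The lymphocyte types lay lowest: gamma-delta T cells had 0.376% and 0.363%, natural killer (NK) cells 0.352% and 0.337%, B cells 0.333% and 0.301%, group 2 innate lymphoid cells 0.292% and 0.241%, and T cells 0.241% and 0.220%. Single cells varied widely around these sums, with the middle 50% of control alveolar macrophages between 1.90% and 2.53% and of exposed ones between 1.86% and 2.45%.

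**Figure D1:**
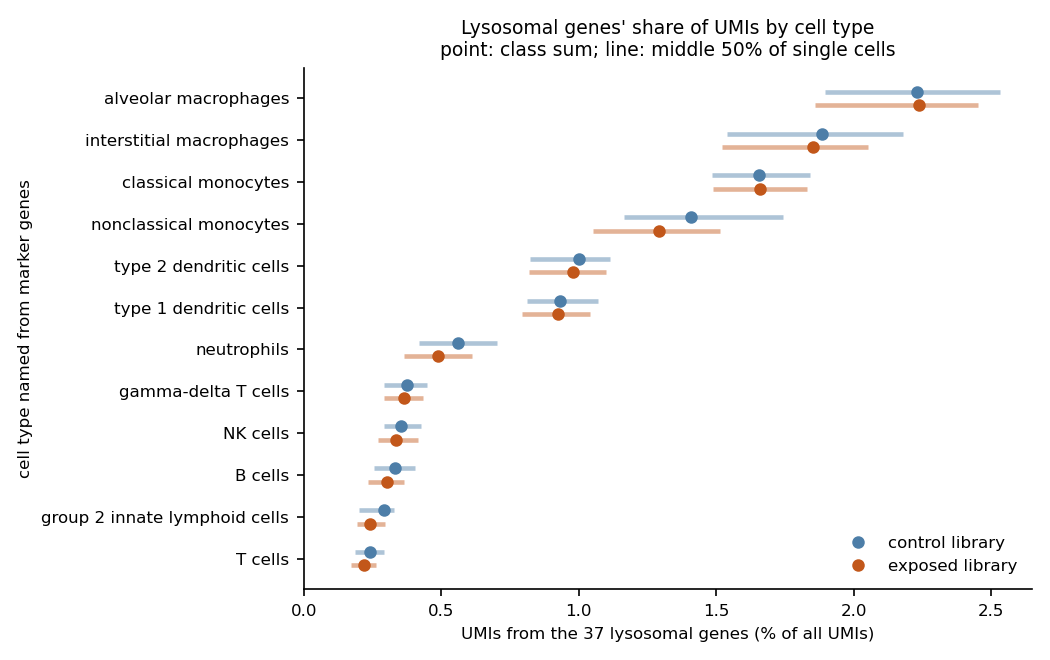
Share of all UMIs from the 37 lysosomal genes (x axis, percent) in 12 cell types (y axis), with a point for the class sum of each library and a line for the middle 50% of its cells. Alveolar macrophages are highest at 2.23% and 2.24% and T cells lowest at 0.241% and 0.220%.

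Some types were mixtures. Nonclassical monocytes consisted of 2 clusters: in the first, of 183 control and 175 exposed cells, the share was 1.65% and 1.48%, close to that of classical monocytes, and in the second, of 130 and 110 cells, it was 1.23% and 1.09%. The 12 neutrophil markers summed to 687 and 1025 CPM in the first cluster and to 63928 and 70741 CPM in the second, whose cells also held more UMIs (medians of 8468 and 8706.5 against 4178 and 5136). Values for nonclassical monocytes as a whole therefore include cells with neutrophil transcripts. Alveolar macrophages likewise comprised a main cluster with 2.34% and 2.30% and a smaller one of 73 and 54 cells with 1.92% and 1.91%, whose median depth was 31309 and 28772.5 UMIs.

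By gene, from the mean of both libraries, 17 of the 37 members were highest in alveolar macrophages, 9 in interstitial macrophages, 4 in neutrophils, 3 in classical monocytes, 2 in type 1 dendritic cells and 1 each in nonclassical monocytes and group 2 innate lymphoid cells. Not all of these peaks were resolved. For many members the intervals of the 2 leading types, taken over both libraries, overlapped. Examples were Lamp1 (1.00-fold apart), Laptm4a (1.05-fold), Atp6v0c (1.07-fold), Tpp1 (1.08-fold) and Cd68 (1.12-fold). The highest type was the same in both libraries for all but Ctsa, Ctsh, Gusb, Psap and Lamp1, whose 2 leading types lay within 1.09-fold of each other.

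Among the cathepsins, which are the proteases of the lysosome, Ctsk and Ctsd were the genes of alveolar macrophages. Ctsk, best known as the collagen-degrading protease of osteoclasts, stood in alveolar macrophages at 296 CPM [285 to 307] for the control and 294 CPM [283 to 305] for the exposed library. No other type exceeded 6.86 CPM, a 62.1-fold gap to the second type. A Ctsk UMI was seen in 85.7% and 77.8% of alveolar macrophages (medians of 18651 and 15865 UMIs per cell) and in 0.409% and 0.280% of B cells (medians of 3313 and 3649.5 UMIs), which should lack it. Ctsd, the main aspartic protease of lysosomes, had 3672 and 3803 CPM in alveolar macrophages and next, 5.55-fold lower, 657 and 690 CPM in NK cells. Neutrophils (498 and 434 CPM) and interstitial macrophages (585 and 471 CPM) were in the range of the NK cells, whereas B cells had 50.3 and 45.0 CPM and type 1 dendritic cells 39.6 and 38.9 CPM. NK cells thus ranked second for Ctsd, above every phagocyte type except alveolar macrophages.

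Cysteine proteases with roles in antigen processing peaked in different cell types. Ctss, which trims the invariant chain of MHC class II, had 2450 and 2518 CPM in alveolar macrophages, 2100 and 2236 in classical monocytes and 441 and 455 in B cells, against 53.7 and 41.1 in NK cells. Lgmn, the asparaginyl endopeptidase legumain, was a gene of interstitial macrophages at 1019 CPM [970 to 1070] and 1174 CPM [1109 to 1243], 5.29-fold above nonclassical monocytes. Ctsc, which activates granule serine proteases, was also highest there, at 1217 and 1415 CPM, with 659 and 692 CPM in alveolar macrophages. Ctsb, an abundant general cysteine protease, was high in interstitial macrophages (1972 and 1849 CPM) and nonclassical monocytes (1848 and 1688 CPM), which differed by 1.08-fold. Ctsh, an aminopeptidase, had its top levels in classical monocytes (569 and 695 CPM) and type 2 dendritic cells (591 and 672 CPM), which could not be ranked. Of the remaining members of the cathepsin group, Ctsz was highest in alveolar macrophages at 806 and 905 CPM. Ctsl had 219 and 239 CPM there and 213 and 178 CPM in interstitial macrophages. Ctsa had 465 and 459 CPM in alveolar macrophages and 378 and 469 CPM in classical monocytes.

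The glycosidases and Tpp1, a tripeptidyl peptidase, were low in most types, and several had their peak outside macrophages. Gla, the alpha-galactosidase that removes galactose from glycolipids, was highest in neutrophils at 137 and 123 CPM, 3.83-fold above nonclassical monocytes. Within the latter, Gla had 62.2 and 42.3 CPM in the cluster rich in neutrophil markers and 16.9 and 8.12 CPM in the other. Neu1, a sialidase, was also highest in neutrophils (200 and 170 CPM), while Glb1, a beta-galactosidase, had only 0.655 and 0.738 CPM there and 43.1 and 61.7 CPM in group 2 innate lymphoid cells, which could not be ranked against interstitial macrophages (40.5 and 35.5 CPM). Man2b1, an alpha-mannosidase, peaked in type 1 dendritic cells at 433 and 432 CPM but lay within 1.14-fold of interstitial macrophages. Hexa, the alpha subunit of beta-hexosaminidase, had 461 and 460 CPM in interstitial and 409 and 430 CPM in alveolar macrophages. Tpp1 and Gaa, the acid alpha-glucosidase, had 182 and 179 CPM, and 41.8 and 35.5 CPM, in interstitial macrophages, 1.08-fold and 1.14-fold above alveolar macrophages. Gusb, a beta-glucuronidase, had 206 and 175.4 CPM in alveolar and 180 and 175.5 CPM in interstitial macrophages.

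In the lipid group, Psap, the precursor of the saposins that present sphingolipids to their hydrolases, was the most abundant member in monocytes and dendritic cells. It had 4418 and 3561 CPM in classical monocytes and 3987 and 3764 CPM in type 1 dendritic cells, so that the control library ranked the monocytes first and the exposed library the dendritic cells. Npc2, a carrier of free cholesterol, was highest in classical monocytes at 1711 and 1461 CPM and, among lymphocytes, reached 489 and 530 CPM in T cells. Npc1, the membrane partner that takes cholesterol from NPC2, was instead highest in alveolar macrophages at 158 and 130 CPM. Ppt1, which removes fatty acyl groups from proteins, was a gene of type 1 dendritic cells at 771 and 717 CPM, 3.09-fold above neutrophils. Lipa, the acid lipase for cholesteryl esters and triglycerides, had 438 and 431 CPM in alveolar macrophages, 2.72-fold above interstitial macrophages. Asah1, the acid ceramidase, had 293 and 295 CPM in alveolar macrophages, and Grn, the progranulin gene, 886 and 805 CPM in interstitial macrophages.

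Membrane proteins peaked in different types. Lamp2, which with LAMP1 lines the lysosome, was highest in neutrophils at 784 and 600 CPM, whereas Lamp1 had 128 and 109 CPM there and 824 and 866 CPM in alveolar macrophages. Cd63, a tetraspanin of late endosomes and granules, was highest in interstitial macrophages (720 and 780 CPM), then in neutrophils (296 and 242 CPM), and had only 11.9 and 7.35 CPM in classical monocytes. Laptm5, a lysosomal membrane protein of blood cells, was high in every type, from 601 and 525 CPM in B cells and 623 and 488 CPM in T cells to 2269 and 2185 CPM in alveolar macrophages. Scarb2, the receptor that carries glucocerebrosidase to lysosomes, and Mcoln1, a calcium channel, were highest in alveolar macrophages (290 and 264 CPM, and 30.5 and 25.6 CPM). Cd68, a macrophage marker, was highest in interstitial macrophages (453 and 548 CPM) and Laptm4a in nonclassical monocytes (349 and 338 CPM).

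Of the proton pump genes, Atp6v0d2 behaved like Ctsk. It encodes a d2 subunit known from osteoclasts and macrophages, and in alveolar macrophages it reached 641 CPM [625 to 657] for the control and 711 CPM [694 to 728] for the exposed library. The second type, interstitial macrophages, had 23.7 and 15.8 CPM, 34.2-fold lower. The catalytic subunit Atp6v1a (228 and 221 CPM in alveolar macrophages) and the accessory subunit Atp6ap1 (221 and 230 CPM) were detected in every type. Atp6v0c, which encodes the ring subunit of the pump, was at 0 in exposed gamma-delta T cells and at most 7.26 CPM in any type. GENCODE lists 2 processed pseudogenes of Atp6v0c and 1 of Cd63, which were not rows of the tables, so levels of these genes are uncertain.

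**Figure D2:**
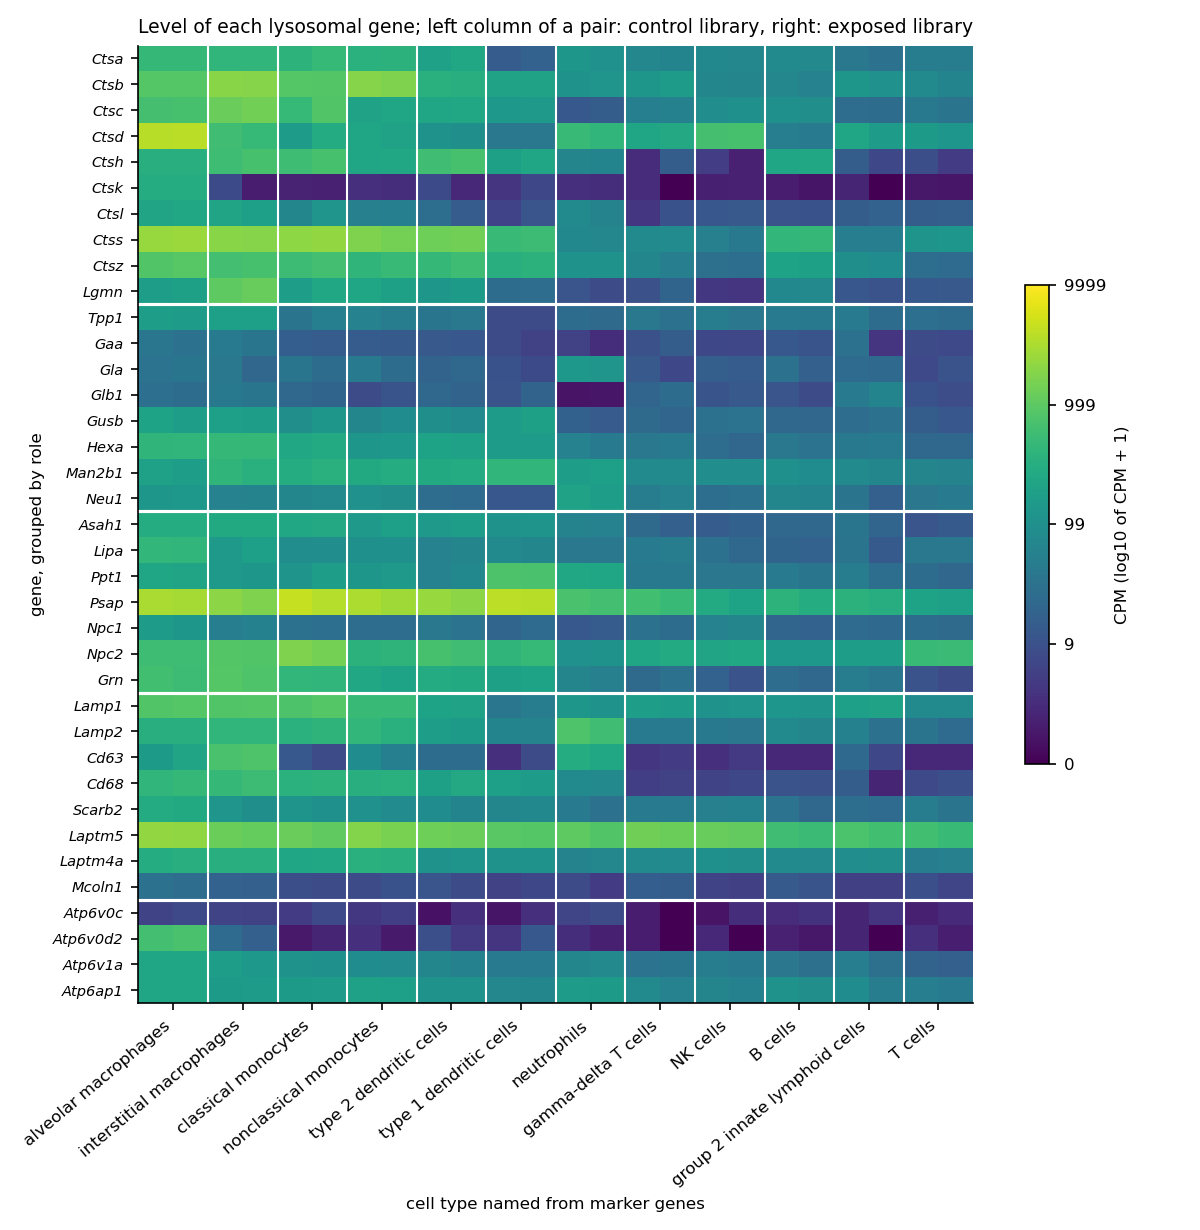
Level of each of the 37 genes (rows, grouped by role) in 12 cell types (column pairs, control left and exposed right), coloured by log10 of CPM + 1. Ctsk and Atp6v0d2 stand out in alveolar macrophages (296 and 641 CPM in the control library), Ppt1 in type 1 dendritic cells and Gla and Lamp2 in neutrophils.

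Transcripts of the MiT/TFE factors differed between types too. Tfec was largely a gene of alveolar macrophages at 92.1 and 85.2 CPM, with 20.6 and 22.7 CPM in interstitial macrophages. Mitf had 41.7 and 44.4 CPM in alveolar and 48.0 and 39.4 CPM in interstitial macrophages and at most 12.4 CPM in any other type. Tfe3 was present in all 12 types, from 21.2 to 72.0 CPM, and Tfeb ranged from 4.41 to 52.3 CPM with its highest value in control B cells.

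In alveolar macrophages, the cells that take up inhaled particles, no lysosomal gene differed by 1.5-fold between the libraries. The summed level differed by 0.0046 on the log2 scale [-0.0040 to 0.013], from 9573625 control and 9516592 exposed UMIs in all. Of all 9762 genes counted there, 4.71% were called, 0.912% higher and 3.80% lower in the exposed library, against 0 of 37 members. The 3 most abundant members stayed within 1.11-fold: Ctsd had 3672 and 3803 CPM (log2 0.05 [0.03 to 0.07]), Psap 3146 and 2844 CPM (-0.15 [-0.17 to -0.12]) and Ctss 2450 and 2518 CPM (0.04 [0.01 to 0.07]). Counting error alone was thus far smaller than 1.5-fold for these genes.

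Cd63 came nearest to a call in alveolar macrophages, with a control level of 148 CPM [140.5 to 156] and an exposed level of 218 CPM [209 to 228] (log2 0.56 [0.46 to 0.66]). A Cd63 UMI was seen in 49.1% [44.5 to 53.8] of control and 53.0% [48.7 to 57.2] of exposed cells, intervals that overlap. Median depths were 18651 and 15865 UMIs, and these shares were not adjusted for depth. The difference lay in the main cluster, where Cd63 had 167 and 242 CPM (0.54 [0.43 to 0.64]), while the smaller, deeper cluster had 94.2 and 93.7 CPM (-0.01 [-0.32 to 0.30]). Conversely, Ctsk was equal in the main cluster (330 and 327 CPM) and lower in the smaller exposed cluster (199 and 123 CPM, -0.69 [-0.94 to -0.45]). T cell markers summed to 125 and 23.4 CPM and B cell markers to 158 and 46.4 CPM in these macrophages. The summed ratio with free RNA subtracted is given in the last section, and the part of such foreign RNA in these single genes was not tested.

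By role, small opposite shifts cancelled. The cathepsin group made up 0.994% and 1.03% of UMIs (0.06 [0.04 to 0.07]), the proton pump 0.110% and 0.117% (0.09 [0.05 to 0.13]) and the lipid group 0.546% and 0.506% (-0.11 [-0.13 to -0.09]). Ctsz and Atp6v0d2 were among the higher members (0.17 [0.12 to 0.21] and 0.15 [0.10 to 0.20]), and Npc1 and Gusb were among the lower (-0.28 [-0.38 to -0.17] and -0.23 [-0.33 to -0.14]).

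Interstitial macrophages also showed nearly equal sums, at 1.89% of 1604121 control and 1.85% of 1014102 exposed UMIs (log2 -0.027 [-0.054 to -0.00085]). Among the 34 members counted 1 was called, lower, against 7.78% of 5427 genes called (2.23% higher and 5.55% lower). That member was Gla, at a control level of 38.7 CPM [29.6 to 49.5] and an exposed level of 19.7 CPM [12.1 to 30.5] (log2 -0.95 [-1.78 to -0.22]), from 62 and 20 UMIs. The call was lost where each cell weighed the same (-0.54). Gla is highest in neutrophils, and the 12 neutrophil markers summed to 1593 and 715 CPM in these cells. Free RNA, estimated with the neutrophil list, was 5.80% in control and 2.42% in exposed cells of this type. With free RNA subtracted the ratio of Gla was -0.97. The part of neutrophil RNA in the Gla difference was not tested.

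The most abundant members in interstitial macrophages were Psap, with 2044 and 1687 CPM (-0.28 [-0.36 to -0.19]), Ctsb, with 1972 and 1849 CPM (-0.09 [-0.18 to -0.01]), and Ctss, with 1912 and 1861 CPM (-0.04 [-0.12 to 0.04]). Cathepsins did not move as a group: Ctsc, Ctsh and Lgmn were higher in the exposed library (0.22, 0.30 and 0.20) and Ctsd lower (-0.31 [-0.47 to -0.15]), with intervals that excluded 0 and folds under 1.5. Markers of classical monocytes in this type summed to 2151 and 937 CPM, a difference that lay mainly in Fn1 (1208 and 82.8 CPM). Its relation to the lysosomal values was not tested.

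Classical monocytes showed the clearest differences of single genes under an equal sum. The 37 genes made up 1.66% of 3375477 control UMIs and 1.66% of 7344379 exposed UMIs (log2 0.0038 [-0.011 to 0.018]). Yet 6 of the 35 members counted (17.1%) were called, against 11.2% of 7968 genes. Of the 35, 5 were called higher in the exposed library, against 410 of the 7968 genes (5.15%). The other 1 was called lower, against 484 of the 7968 genes (6.07%). The members' median log2 ratio was 0.09, against -0.04 over all genes counted.

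In this type Ctsd had a control level of 155 CPM [142 to 168] and an exposed level of 293 CPM [281 to 305] (log2 0.92 [0.78 to 1.06]). Ctsl, a cysteine protease of the same compartment, had 68.7 CPM [60.2 to 78.2] and 120.4 CPM [113 to 129] (0.81 [0.60 to 1.02]). Ctsc had 470 CPM [448 to 494] and 810 CPM [789 to 831] (0.78 [0.70 to 0.86]). All 3 cathepsins were therefore higher by 1.72-fold to 1.89-fold. Tpp1 had 34.1 CPM [28.1 to 40.9] and 52.4 CPM [47.3 to 57.9] (0.62 [0.32 to 0.94]). Ppt1 had 116 CPM [105 to 128] and 177 CPM [167 to 186] (0.60 [0.44 to 0.77]). Cd63 was the one called lower, at 11.9 CPM [8.47 to 16.1] and 7.35 CPM [5.52 to 9.59] (-0.69 [-1.31 to -0.06]), from 40 and 54 UMIs. No single cell dominated the 5 higher genes, since the top cell held at most 5.17% of a gene's UMIs, while for Cd63 it held 10.0% in the control library. The share of cells with a Ctsd UMI was 68.0% and 84.5%, at median depths of 8785.5 and 12283 UMIs, and 16% [12.4 to 20.1] and 23.7% [20.3 to 27.4] once each cell was thinned to 1000 UMIs.

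Of the cathepsin group, 8 of 9 members counted had a positive ratio, and its share of UMIs was 0.536% and 0.636% (0.25 [0.22 to 0.27]). Lgmn (170 and 240 CPM, 0.49) and Gusb (95.1 and 130 CPM, 0.45) lay just under the 1.5-fold limit. The lipid group went the other way, with 0.705% and 0.60% (-0.23 [-0.26 to -0.21]). That shift lay in its 2 largest members, Psap with 4418 and 3561 CPM (-0.31 [-0.34 to -0.28]) and Npc2 with 1711 and 1461 CPM (-0.23 [-0.27 to -0.18]). Ctss, the third of the 3 most abundant members, had 2100 and 2236 CPM (0.09 [0.05 to 0.13]). Membrane proteins (0.308% and 0.305%) and proton pump genes (0.0264% and 0.0265%) had ratios whose intervals included 0.

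**Figure D3:**
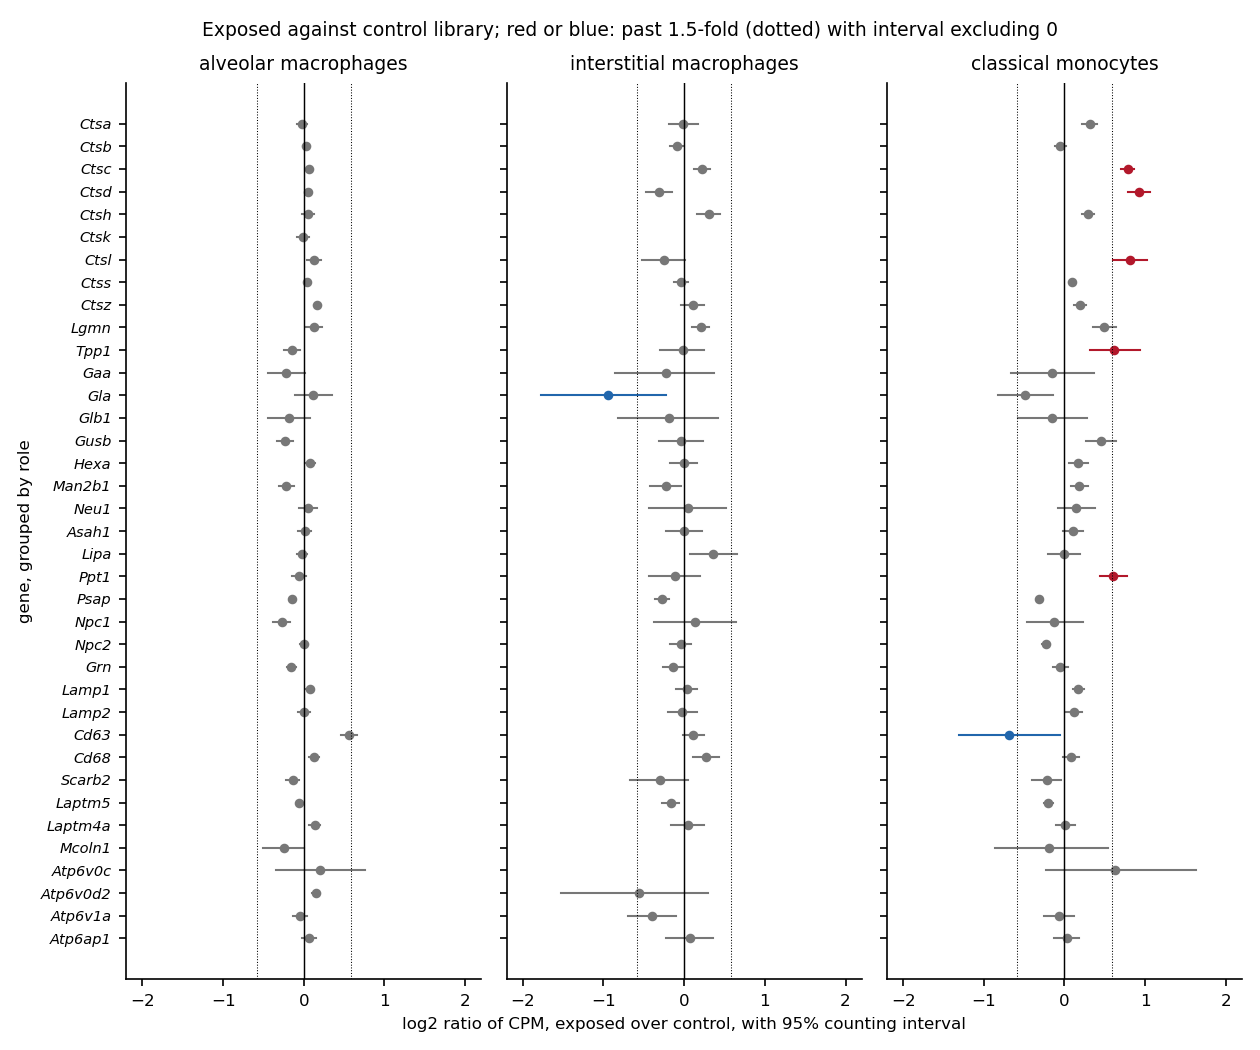
Log2 ratio of CPM, exposed over control (x axis), in 3 cell types, for genes whose counts summed to 50 or more, with 95% counting intervals and dotted lines at 1.5-fold. Only classical monocytes show several genes beyond the lines, with Ctsd at 0.92, Ctsl at 0.81 and Ctsc at 0.78.

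**Figure D4:**
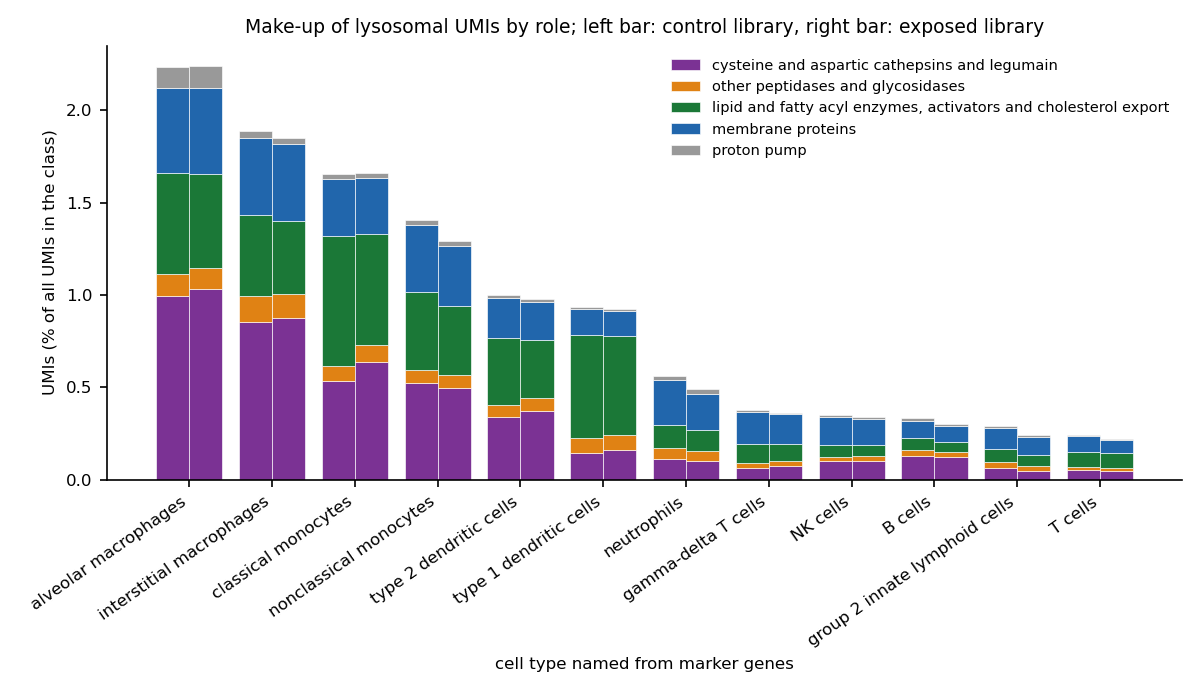
Share of UMIs (y axis, percent) of the 5 role groups in 12 cell types, stacked, with the control library as the left and the exposed library as the right bar. In classical monocytes the cathepsin part is 0.536% and 0.636% and the lipid part 0.705% and 0.60%, with equal totals.

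Ctsd, Ctsl, Ctsc and Psap lay farthest from their control level in monocytes that clustered apart and came almost only from the exposed library. Clustering the classical monocytes again gave 8 sub-clusters, of which 2 held over 90% exposed cells (7 control and 249 exposed cells together). These were picked for their library, from clusters of the same data without batch correction. Whether they were added cells or part of a shift of all exposed monocytes was not tested. Median depth was 14615 UMIs in exposed cells inside them, 10731 in exposed cells outside and 8772 in control cells outside. The larger was led by Wfdc21, S100a8 and Lcn2, genes known from neutrophils. Ctsd had 387 CPM in exposed cells inside these sub-clusters, 197.5 CPM in exposed cells outside them and 154 CPM in control cells outside them. Ctsl had 154, 86.7 and 67.5 CPM, and Ctsc 957, 661 and 463 CPM, in the same order. Psap ran the opposite way, with 3248, 3878 and 4441 CPM. Exposed cells outside the sub-clusters thus lay between the other sets of cells for all 4 genes. Without these sub-clusters the ratios of Ctsd, Ctsl, Ctsc, Tpp1 and Ppt1 stayed positive, at 0.36, 0.36, 0.51, 0.45 and 0.37, but none reached 1.5-fold, and 1 member (Cd63) remained called.

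Markers of other cells in classical monocytes differed between the libraries as well. The 12 neutrophil markers summed to 1115 and 1637 CPM, all of them detected, with S100a8 at 264 and 559 CPM and Wfdc21 at 1.78 and 120 CPM. They did not all rise. Csf3r (125 and 113 CPM), Il1r2 (103 and 90.5 CPM), Retnlg (37.0 and 30.5 CPM) and Stfa2l1 (1.78 and 1.50 CPM) were lower in the exposed library, and the rest were higher. The 16 alveolar macrophage markers summed to 1260 and 2273 CPM, a difference that lay in Chil3 (1083 and 2126 CPM), which monocytes also express. In classical monocytes Marco had 1.19 and 0.953 CPM, Ctsk 1.48 and 1.36 CPM and Atp6v0d2 0.889 and 1.63 CPM. Neutrophils had 498 and 434 CPM of Ctsd, 78.6 and 60.2 CPM of Ctsl and 11.5 and 14.3 CPM of Ctsc. The part of RNA from other cells in the monocyte differences was not tested. With cells gated one by one by marker UMIs, 2 of the 6 called members stayed past 1.5-fold, Ctsc at 0.74 and Ctsl at 0.64. Ctsd (0.43), Ppt1 (0.57), Tpp1 (0.49) and Cd63 (-0.33) then lay under that limit.

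Other genes of the pathway were counted from lists drawn up for this purpose. Over these lists together, 11 of 107 genes counted in classical monocytes were called (10.3%), a share close to the 11.2% of all genes, with 7 higher and 4 lower. Of 28 further lysosomal hydrolases counted in classical monocytes, 3 were called higher and 1 lower. Acp5, the tartrate-resistant acid phosphatase of macrophages and osteoclasts, had 9.78 and 26.6 CPM (log2 1.42 [0.90 to 2.02]), Dnase2a, the lysosomal DNase, 19.8 and 33.9 CPM (0.77 [0.38 to 1.18]) and Acp2, another acid phosphatase, 14.8 and 24.1 CPM (0.69 [0.24 to 1.18]). Ids, the iduronate sulfatase, was lower with 70.2 and 42.6 CPM (-0.72 [-0.97 to -0.47]). Their median ratio was 0.06. None of the 14 further proton pump subunits was called there (median -0.01). Of 19 other lysosomal membrane proteins and transporters, Cd164 was called lower (56.9 and 30.2 CPM, -0.91 [-1.2 to -0.63]). Among 12 sorting genes Nagpa, which uncovers the mannose 6-phosphate tag, was called higher (20.4 and 34.0 CPM, 0.73 [0.35 to 1.14]). Of 4 cathepsin inhibitors counted, Serpinb1a was called higher (13.3 and 21.9 CPM) and so was Serpinb6a (4.15 and 7.62 CPM). Tfec was the 1 MiT/TFE factor called, from 23 and 81 UMIs (6.81 and 11.0 CPM, 0.67 [0.01 to 1.43]), and Rptor, a subunit of the mTORC1 kinase complex, was called lower (17.8 and 8.99 CPM, -0.99 [-1.51 to -0.45]). Of 14 autophagy genes, Gabarapl1 was called lower (44.1 and 28.3 CPM).

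Over these lists together, 1 of 112 genes counted was called in alveolar macrophages (0.893%, against 4.71% of all genes) and 8 of 96 in interstitial macrophages (8.33%, against 7.78%). In alveolar macrophages, of 29 further hydrolases, 14 pump subunits, 21 membrane proteins, 13 sorting genes and 15 autophagy genes none was called, and of 16 transcription factor and nutrient sensing genes Rptor alone was called, lower (14.5 and 8.51 CPM, -0.77 [-1.18 to -0.37]). In interstitial macrophages, calls lower in the exposed library included Acp5 among the hydrolases (46.8 and 28.6 CPM), Atp6v0a2 among 14 pump subunits (26.2 and 12.8 CPM) and Hgsnat, a heparan acetyltransferase, among 15 membrane proteins (55.5 and 23.7 CPM). Acp5 was thus called in opposite directions in classical monocytes and interstitial macrophages, and the difference between the types was not tested. Slc15a4, a histidine and peptide transporter, was called higher (30.5 and 50.3 CPM), as were the sorting adaptor Gga2 (16.2 and 31.6 CPM) and Rptor (16.8 and 29.6 CPM). Serpinb1a was lower by the most, at 33.7 and 4.93 CPM (-2.65 [-4.45 to -1.46]).

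Beyond these 3 types the sums were equal or lower in the exposed library. The log2 ratio was -0.13 [-0.15 to -0.10] in nonclassical monocytes, -0.20 [-0.22 to -0.18] in neutrophils, -0.15 [-0.17 to -0.12] in B cells, -0.13 [-0.17 to -0.10] in T cells, -0.06 [-0.10 to -0.03] in NK cells and -0.28 [-0.38 to -0.18] in group 2 innate lymphoid cells. Intervals included 0 in gamma-delta T cells (-0.05), type 1 dendritic cells (-0.01) and type 2 dendritic cells (-0.03). The median over all genes counted was itself -0.14 in B cells, -0.13 in T cells and -0.10 in neutrophils, beside which the sums of B and T cells stood close and that of neutrophils lower. In group 2 innate lymphoid cells that median was -0.01, and markers of other cells differed too: the 9 markers of proliferating cells summed to 22.4 and 484 CPM, the 14 of interstitial macrophages to 439 and 123 CPM and the 11 of B cells to 342 and 144 CPM. Their part in the lower sum was not tested.

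Called members in these types were few. Nonclassical monocytes had 2 of 32 called lower (6.07% of genes were called, 2.35% higher and 3.72% lower), of which Cd63 had the bound farthest from 0 (88.7 and 51.5 CPM, -0.78 [-1.13 to -0.44]), beside Gla (42.9 and 24.8 CPM). In the cluster poor in neutrophil markers Cd63 had 5.65 and 1.80 CPM and Gla 16.9 and 8.12 CPM, with intervals that included 0. Neutrophils had 2 of 34 called lower (9.42% of genes, 2.56% higher and 6.85% lower), Gaa (5.11 and 2.34 CPM, -1.11 [-2.0 to -0.30]) and Mcoln1 (7.2 and 4.18 CPM). Lamp2, with 784 and 600 CPM (-0.39), was under 1.5-fold, and its lower level appeared in each of the 3 large neutrophil clusters, at -0.40, -0.35 and -0.46. B cells had 2 of 33 called lower (4.72% of genes, 0.661% higher and 4.06% lower), Gla (31.1 and 16 CPM, -0.96 [-1.30 to -0.64]) and Scarb2 (32.9 and 21.7 CPM). Group 2 innate lymphoid cells had 2 called lower among 16 (6.97% of genes, 3.40% higher and 3.58% lower). Atp6ap1 had 87.8 and 47.5 CPM (-0.88 [-1.58 to -0.22]), and Lamp2 had 55.9 and 30.1 CPM from 35 and 19 UMIs, where 1 cell held 25.7% of the control UMIs. NK cells had Grn lower among 28 (3.80% of genes, 1.14% higher and 2.66% lower), at 17.2 and 9.51 CPM. T cells had Ctsh lower among 33 (5.57% of genes, 0.910% higher and 4.66% lower), at 8.17 and 3.97 CPM, where 1 cell held 48.1% of the exposed UMIs. Type 2 dendritic cells had Ctsl lower among 32 (10.2% of genes, 2.40% higher and 7.85% lower), at 26.6 and 13.6 CPM, where 1 cell held 34.0% of the control UMIs. The single call in the other direction was Glb1 in type 1 dendritic cells, among 28 (6.01% of genes, 2.28% higher and 3.73% lower), at 9.55 and 17.5 CPM (0.87 [0.17 to 1.61]). Gamma-delta T cells had 0 of 21 (5.01% of genes, 1.84% higher and 3.17% lower).

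Gla was called lower in interstitial macrophages, nonclassical monocytes and B cells, and its ratio was -0.49 [-0.83 to -0.14] in classical monocytes. It was not lower everywhere, since alveolar macrophages had 32.0 and 34.7 CPM (0.12 [-0.11 to 0.35]). The cell types come from the same 2 libraries and are not replicates of the exposure.

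Psap and Laptm5 had lower CPM in the exposed library in all 12 types. For Psap the ratio ran from -0.42 in NK cells to -0.08 in type 1 dendritic cells, with an interval below 0 in 11 types. For Laptm5 it ran from -0.35 in T cells to -0.05 in alveolar macrophages, with an interval below 0 in all 12. No type reached 1.5-fold for either gene. Of the 2687 genes counted in all 12 types, 139 (5.17%) were lower in every type, and 73 (2.72%) remained so after each type's median was subtracted, Psap and Laptm5 included. Of the 14 members counted in all 12 types these were the only 2, and 0 members were higher in every type, against 1.56% of genes.

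**Figure D5:**
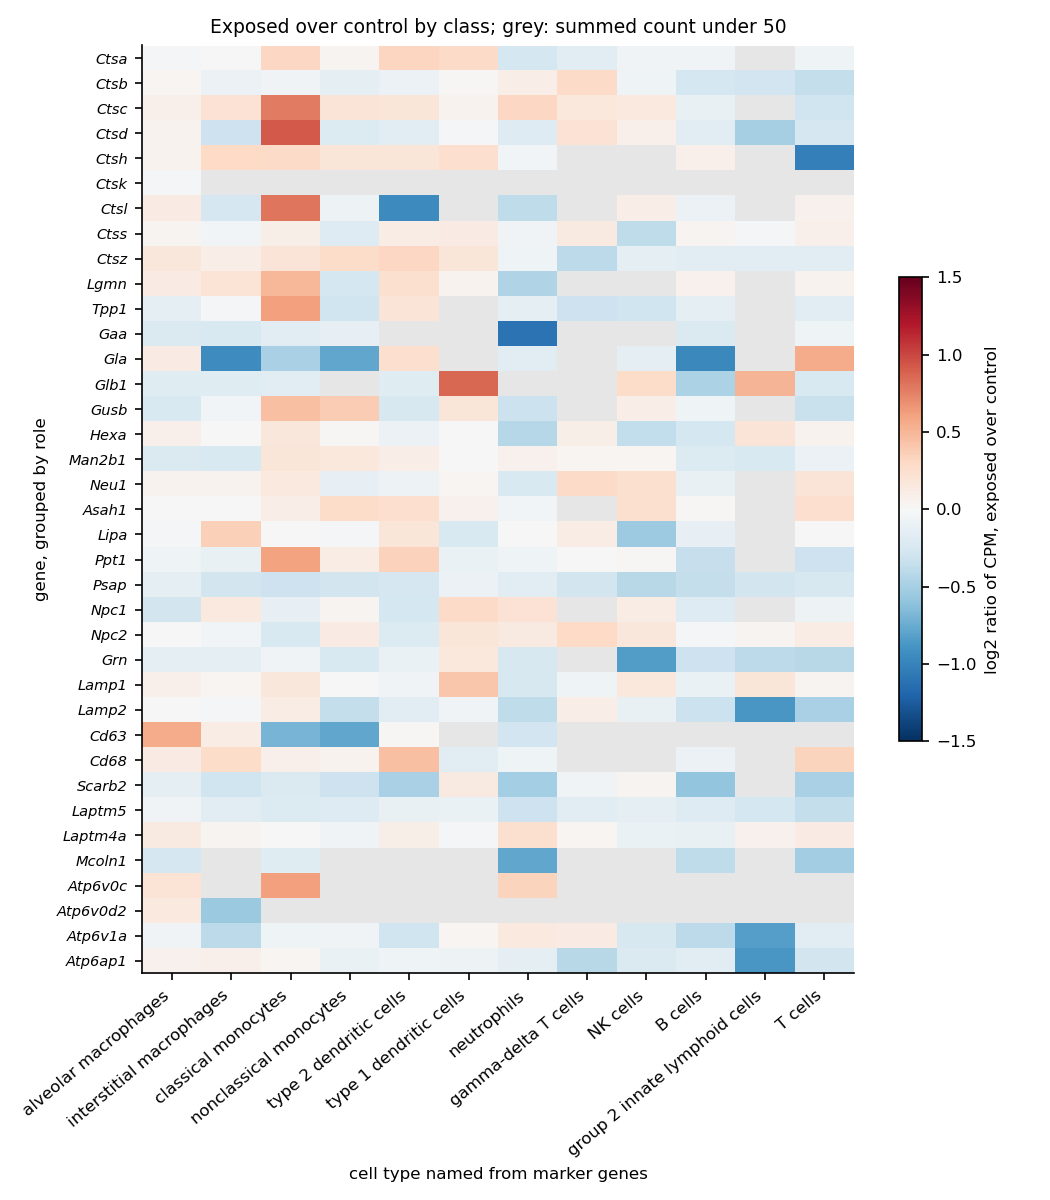
Log2 ratio of CPM, exposed over control (colour), of the 37 genes (rows) in 12 cell types (columns), with grey where the summed count was under 50. Psap and Laptm5 are below 0 in every column (pale in alveolar macrophages, at -0.15 and -0.05), and Ctsc, Ctsd and Ctsl are red in classical monocytes.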

How the data were processed

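The deposited values were raw UMI counts for each gene in each barcode. Cell Ranger 3.1.3 and mm10 are given per the submitters' processing notes, while the file headers give version 3.1.0. The 3′ kit v3.1 was used, per the labels. Members, gene lists, markers and alternatives were chosen with earlier results of these data known.

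Barcodes with at least 500 UMIs, 200 genes and at most 10% mitochondrial UMIs were kept, and doublets (0.8% per 1000 cells, from 2 simulated doublets per cell and 30 neighbours) were removed. Without the 37 members, 2000 variable genes, 30 principal components and a graph of 20 neighbours were clustered (leidenalg 0.10.2, resolution 1, no batch correction). A cluster was named where at least 3 markers of a type stood among its 50 leading genes and no other type had more among the top 10. UMIs were summed per type and library, with exact Poisson intervals on CPM, Clopper-Pearson intervals on shares, and exact conditional binomial intervals on ratios with 0.5 counts added (scipy 1.17.1). The procedure was tested on simulated data.

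Named were, in the 3 main types, all called members and the 3 with the largest summed count, elsewhere the called member with the farthest nearest bound, and up to 3 called genes of each further list. The other genes were named after their values were seen. Gene positions came from GENCODE M21. Reads from overlapping genes on the same strand cannot be told apart for Ctsd, Ctsl, Ctss and Glb1. A further called gene of these lists is not reported here.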

Additional observations from a re-analysis of the deposited data

How the results depend on the processing

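No paired analysis was possible because each group held 1 library. The summed log2 ratio turned positive in interstitial macrophages with doublets kept (0.044) and with scaling by the median of gene ratios (0.0062), and stood at -0.060 without the 1% of cells with most UMIs and at -0.074 with each cell weighing the same. In alveolar macrophages it was -0.024 with doublets kept, -0.017 with each cell weighing the same, 0.049 with median scaling, -0.013 with free RNA subtracted and -0.021 without the smaller, deeper cluster. In classical monocytes it was 0.020 with doublets kept, 0.040 with median scaling and 0.020 without the sub-clusters of 1 library. Called members numbered 1 in alveolar macrophages with median scaling and with the lower fold limit tried. In interstitial macrophages they numbered 4 with doublets kept, 2 with a minimum count of 1, 3 at the lower fold limit, and 0 with each cell weighing the same, with a minimum of 100 or at 2-fold. In classical monocytes they numbered 3 with cells gated one by one, 0 at 2-fold and 1 without the sub-clusters of 1 library. The cause was not tested. Free RNA was estimated with a different marker list in each main type and differed between the libraries. It was 3.29% control and 1.17% exposed in alveolar macrophages (B cell list) and 5.80% and 2.42% in interstitial macrophages (neutrophil list). In classical monocytes it was 3.34% and 1.02% (T cell list). All 6 monocyte calls kept their direction under the alternatives run, but several fell under 1.5-fold: Tpp1 (0.56) and Cd63 (-0.45) with doublets kept, Tpp1 (0.57) with stricter cell filters, Ppt1 (0.58) without the 1% of cells with most UMIs, Ppt1 (0.56) and Tpp1 (0.58) with each cell weighing the same, and Cd63 (-0.43) with free RNA subtracted. Over the alternatives the sum ranged from -0.22 to -0.10 in neutrophils, from -0.20 to -0.0051 in B cells, from -0.21 to -0.0077 in T cells, from -0.097 to -0.019 in NK cells, from -0.18 to -0.078 in nonclassical monocytes and from -0.30 to -0.22 in group 2 innate lymphoid cells, and it changed sign in type 2 dendritic cells (-0.056 to 0.046). Leaving out clusters mostly of 1 library or of mixed markers was not run, since no cluster of the 3 main types met that rule. The settings without 1-library sub-clusters and without the deeper macrophage cluster, and all those for the other 9 types, were chosen after seeing the data. Genes under about 50 summed UMIs, such as Atp6v0c in most types, could not be compared at this depth.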
